A study of Homo sapiens with 6 samples.

Results

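The ligands and receptors of axon guidance were examined in A2780 cells, an established human ovarian cancer line, with and without a hairpin against USP39. They were the ephrins and Eph receptors, the semaphorins of classes 3 to 7, the plexins, neuropilins, SLIT ligands, ROBO receptors and UNC5 netrin receptors, found in the table by gene symbol. The deposited table held 58 such genes on 78 transcript rows, of 16571 genes on 21368 rows. A further 6 genes of these families, EPHA4, NRP2, SEMA4A, SEMA5B, SEMA6C and SLIT3, were not analysed here.

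Both groups of libraries came from A2780 cells infected with lentivirus. In the pGIPZ-NC group (n = 3) the virus carried the control vector, and in the shUSP39 group (n = 3) it carried a short hairpin that targets USP39, which belongs to the spliceosome. The study's methods describe stable lines selected with puromycin, and which of the study's hairpins was used is not stated in the labels. The study's legends call its RNA-seq samples biologically independent, while the labels do not say whether the 3 libraries of a group came from separate cultures or infections. The p-values measured the spread between these libraries. If each group was a single line, a difference between lines cannot be told apart from an effect of the hairpin. USP39 itself was not analysed here, and the labels were not checked against it.

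The total was between 28294819 and 32939264 counts per library. A count was found for 12662 to 12819 genes in the pGIPZ-NC libraries and shUSP39 replicate 1, but for 15446 and 14890 genes in shUSP39 replicates 2 and 3, so these 2 libraries stood apart and results were also computed without them. Of 11 epithelial markers 9 had rows, and their summed level was 26.2 to 27.6 CPM (counts scaled to the total of the library) in pGIPZ-NC and 33.2 to 40.1 CPM in shUSP39, with KRT18 higher and KRT8 and CDH6 lower. PAX8, EPCAM, ESR1 and SOX17 had at most 6 counts in any library, and MUC16 had 150 and 71 counts in shUSP39 replicates 2 and 3 and at most 6 elsewhere. Among 7 fibroblast markers 4 were lower in shUSP39, the collagens COL1A2 and COL3A1 and the proteoglycans LUM and DCN, and the summed level of the list was 2529 to 2646 CPM in pGIPZ-NC and 1245 to 1318 CPM in shUSP39. Of the fibroblast receptors, PDGFRA had 0 counts in every pGIPZ-NC library and 6, 1 and 0 in shUSP39, and PDGFRB had 30 to 46 counts in each library. The leukocyte, endothelial and neuronal lists had no member past the test, with summed levels of at most 13.1, 1.79 and 1.82 CPM. The part of these markers in the results below was not tested.

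Axon guidance molecules steer growing nerve fibres and are used again by epithelia, vessels and tumours to sort cells and control their movement. Ephrins are held in the membrane, those of class A by a lipid anchor and those of class B by a transmembrane segment, and they signal on contact to Eph receptor tyrosine kinases on a neighbouring cell. Semaphorins signal through plexins, and the secreted class 3 proteins mostly need a neuropilin as co-receptor. SLIT proteins are secreted ligands of ROBO receptors, and UNC5 receptors mediate repulsion by netrins.

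Of the 58 genes, 37 had enough counts for the filter and were tested with edgeR's quasi-likelihood test, with p adjusted over all 10695 genes tested. Beyond 2-fold and with an adjusted p under 0.05, 6 were higher in shUSP39 and 6 lower, each 16.2% of those tested, where the background over all genes was 4.53% higher and 2.28% lower. Tested against the 2-fold limit itself, 3 were higher and 5 lower. With at least 10 counts in every library, 5 of 31 tested were higher and 2 lower beyond 2-fold. Shares over all genes are not given for these fits. The 6 that rose were the ephrins EFNA1 and EFNA2, the receptors EPHA7, EPHA10 and EPHB3, and the ligand SLIT1. The 6 that fell were the ephrin EFNA5, the receptor EPHA3, and the semaphorins SEMA3A, SEMA3D, SEMA4F and SEMA6D. Ligands and receptors thus moved in both directions within the Eph system, while every semaphorin called beyond 2-fold was lower.

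At the adjusted p alone, 15 guidance genes were higher (40.5%) and 10 lower (27.0%), beside 16.1% and 17.5% of all genes. The other 12 tested did not pass. The median log2 fold change was 0.17 over the 37 and 0.01 over all genes, and the median size of the change was 0.53 and 0.22. In 19 of the 37 every shUSP39 library lay above every pGIPZ-NC library (51.4%, against 24.1% of all genes), and in 11 below (29.7%, against 20.3%). Passing the filter needs counts in enough libraries, so these shares describe the genes tested and not all 58. Without shUSP39 replicates 2 and 3, 45 guidance genes passed the filter and 1 shUSP39 library was left. In that fit every gene named above as beyond 2-fold kept its direction. The value of EPHB3 was 0.95, inside 2-fold, and SEMA4F, at -1.73, also lost its call. In bulk samples, fewer cells with a transcript and less of it per cell cannot be told apart.

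**Figure D1:**
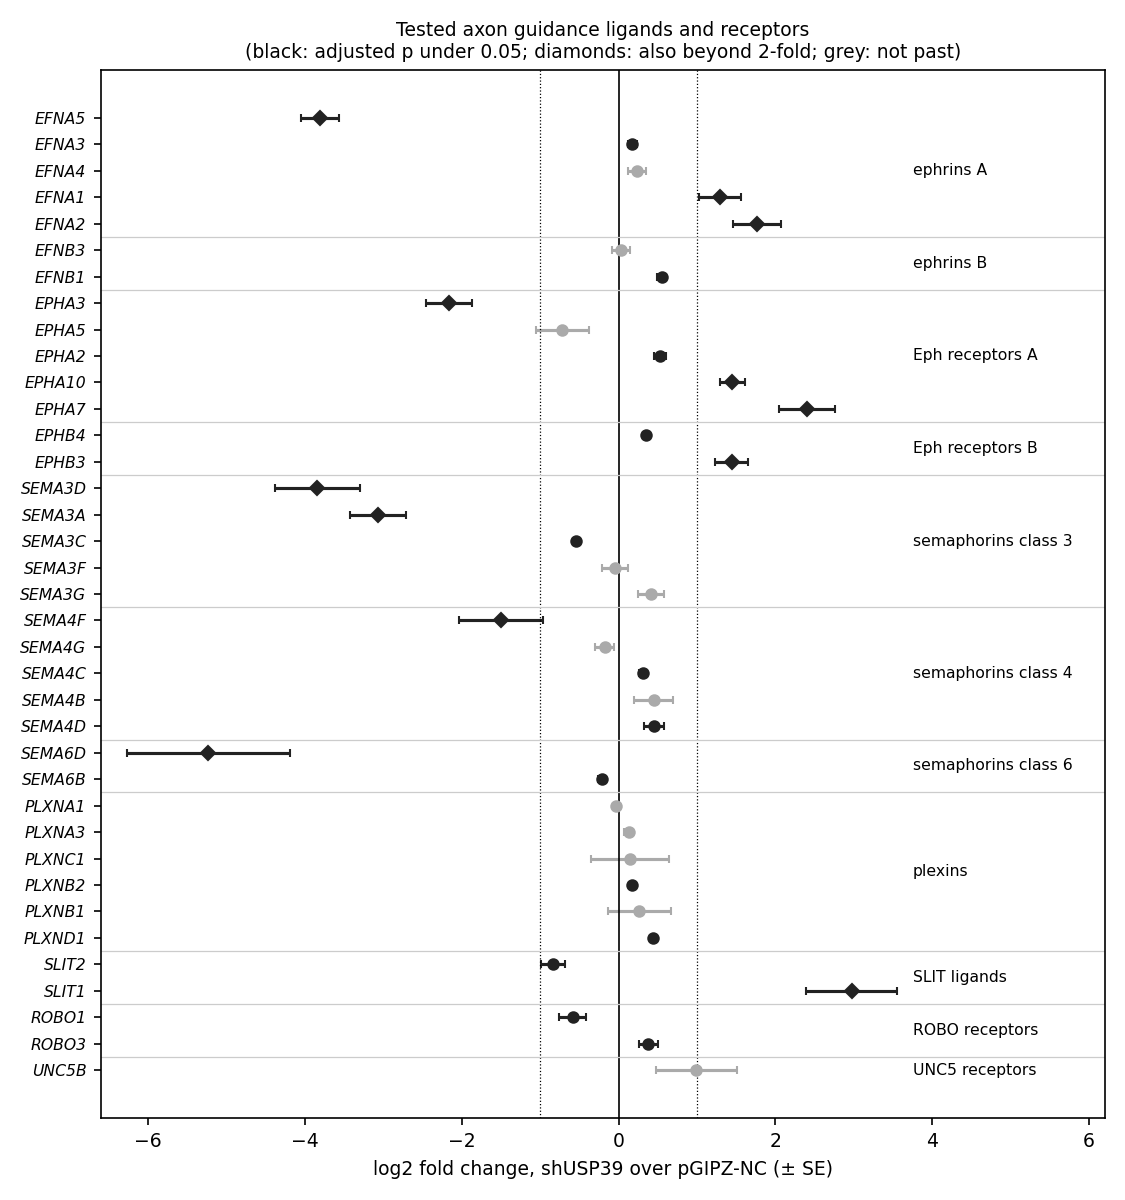
Log2 fold change of shUSP39 over pGIPZ-NC (horizontal axis, bars are SE) for the 37 tested guidance genes, grouped by family, with dotted lines at a 2-fold change. Diamonds mark the 12 genes called beyond 2-fold, from SEMA6D at -5.23 (a fitted value that rests on 1 shUSP39 count) to SLIT1 at 2.97, and most plexins sit near 0.

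Of the genes called beyond 2-fold, 6 are shown here with the sequence just upstream of the gene. They are the 3 largest falls and the 3 largest rises among called genes with a single start in the RefSeq promoter table (GRCh38.p14), in which 50 of the 58 genes had an entry. Each sequence is the 250 bases before the start, read in the direction of the gene. Capitals mark 4 motifs searched on both strands, the GC box GGGCGG, the CCAAT box CCAAT, the TATA box TATAAA and the E-box CACGTG. The windows are chr7:85187057-85187306 on the minus strand for SEMA3D, chr5:107670938-107671187 on the minus strand for EFNA5, chr3:89107371-89107620 on the plus strand for EPHA3, chr10:97185960-97186209 on the minus strand for SLIT1, chr19:1285623-1285872 on the plus strand for EFNA2 and chr3:184561535-184561784 on the plus strand for EPHB3.
SEMA3D: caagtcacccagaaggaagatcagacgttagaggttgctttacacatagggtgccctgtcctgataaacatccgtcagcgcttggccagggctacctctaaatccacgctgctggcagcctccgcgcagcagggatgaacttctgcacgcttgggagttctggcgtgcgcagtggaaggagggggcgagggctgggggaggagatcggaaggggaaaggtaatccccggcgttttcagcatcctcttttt
EFNA5: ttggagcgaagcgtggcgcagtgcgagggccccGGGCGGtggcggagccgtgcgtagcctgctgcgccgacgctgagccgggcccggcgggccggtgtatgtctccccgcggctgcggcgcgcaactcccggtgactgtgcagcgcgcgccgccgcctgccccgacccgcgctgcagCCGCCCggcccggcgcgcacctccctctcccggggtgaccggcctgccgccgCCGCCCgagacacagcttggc
EPHA3: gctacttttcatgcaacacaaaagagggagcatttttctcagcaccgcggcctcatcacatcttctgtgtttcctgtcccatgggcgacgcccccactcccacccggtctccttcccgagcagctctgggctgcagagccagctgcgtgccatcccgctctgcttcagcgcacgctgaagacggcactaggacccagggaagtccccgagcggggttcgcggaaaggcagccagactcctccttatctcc
SLIT1: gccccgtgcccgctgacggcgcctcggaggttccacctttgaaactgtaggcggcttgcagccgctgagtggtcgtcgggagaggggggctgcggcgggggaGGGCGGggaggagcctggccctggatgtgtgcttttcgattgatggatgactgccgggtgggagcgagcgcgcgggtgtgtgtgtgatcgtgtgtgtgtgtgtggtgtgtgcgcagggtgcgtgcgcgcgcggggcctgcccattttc
EFNA2: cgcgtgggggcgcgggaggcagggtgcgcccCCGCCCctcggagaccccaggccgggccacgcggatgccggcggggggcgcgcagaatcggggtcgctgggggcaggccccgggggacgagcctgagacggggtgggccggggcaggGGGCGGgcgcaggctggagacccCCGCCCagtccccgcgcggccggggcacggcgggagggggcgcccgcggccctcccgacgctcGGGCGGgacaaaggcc
EPHB3: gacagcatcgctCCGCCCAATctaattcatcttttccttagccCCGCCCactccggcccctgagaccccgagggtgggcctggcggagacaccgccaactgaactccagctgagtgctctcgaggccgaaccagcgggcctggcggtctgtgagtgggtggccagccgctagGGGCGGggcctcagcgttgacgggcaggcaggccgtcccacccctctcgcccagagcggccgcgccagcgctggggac

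SEMA3D and EPHA3 held none of these motifs. EFNA5, which fell, held 3 GC boxes, as did EPHB3, which rose and also held a CCAAT box overlapping one of them. SLIT1 had 1 GC box and EFNA2 had 4. CpG pairs numbered 13 in SEMA3D, 15 in EPHA3, 21 in EPHB3, 25 in SLIT1, 36 in EFNA2 and 41 in EFNA5, so the 2 richest windows belonged to ephrins that moved in opposite directions. Among all windows of genes called beyond 2-fold, a GC box was in 7 of 7 of those higher and 3 of 7 of those lower. The median number of CpG pairs was 21 and 15. These windows came from 5 genes in each direction, and a link with the change was not tested. The promoter table covers 27305 genes, a wider set than the genes tested here. Over all 75 windows of the guidance genes, 56 held a GC box (74.7%), against 42.6% of the 35116 windows in the promoter table, and the median GC content was 66.4% and 58.0%. A CCAAT box was in 20 (26.7%, against 32.0%), a TATA box in 3 (4.0%, against 10.7%) and an E-box in 4 (5.33%, against 6.34%). A match describes letters and was not read as a bound site.

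**Figure D2:**
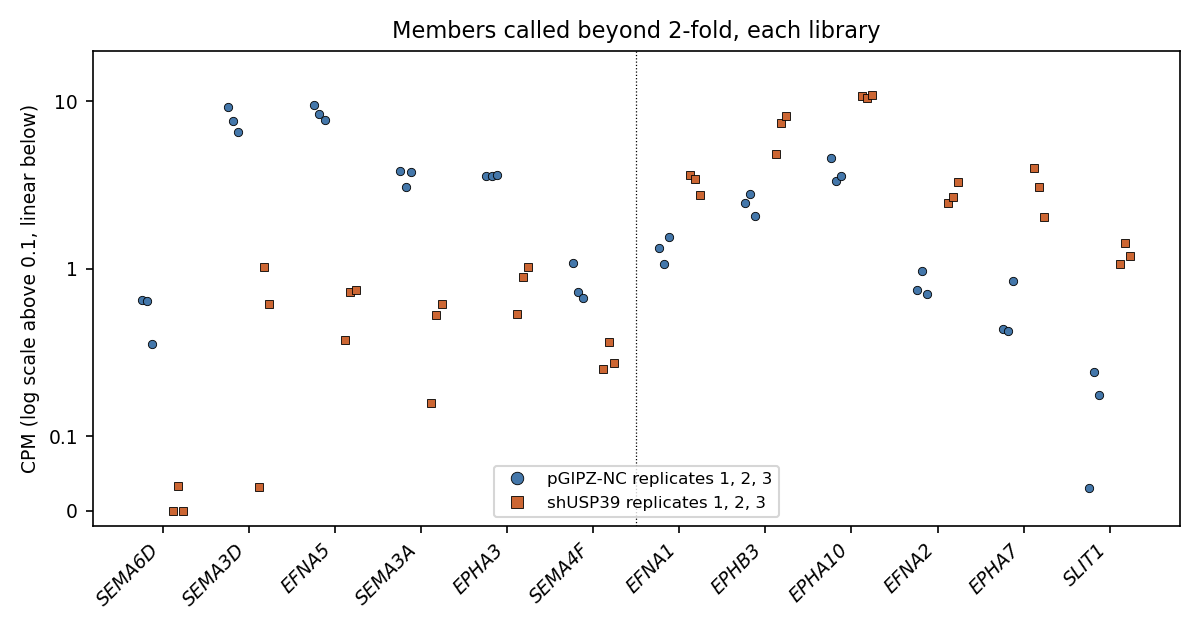
CPM in each library (vertical axis, log scale above 0.1 and linear below) for the 12 guidance genes called beyond 2-fold, falling genes left of the dotted line and rising genes right. In each gene the 3 shUSP39 squares and the 3 pGIPZ-NC circles do not overlap.

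The class A ephrins moved in both directions. All 5 were tested, and 3 were higher and 1 lower at the adjusted p. EFNA5, a widely acting repulsive ephrin, had 305, 276 and 218 counts in pGIPZ-NC and 12, 22 and 22 in shUSP39. Its level was 8.52 ± 0.886 and 0.618 ± 0.208 CPM (SD, n = 3), a log2 change of -3.81 (SE 0.24, adjusted p = 1.19e-12) or 14.0-fold lower. Each pGIPZ-NC library held more EFNA5 counts than the 3 shUSP39 libraries together.

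EFNA2 went the other way, from 24, 32 and 20 counts to 78, 81 and 97. Its log2 fold change was 1.76 (SE 0.31, adjusted p = 4.73e-05). EFNA1, the main ligand of EPHA2 and a product of many epithelia, had 43, 35 and 44 counts in pGIPZ-NC and 115, 104 and 81 in shUSP39, a log2 change of 1.29 (SE 0.27, adjusted p = 0.0004). Neither gene's groups overlapped, although both stayed at low levels.

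EFNA3 was the most abundant ephrin per kilobase of transcript. It had 2463, 2661 and 2155 counts in pGIPZ-NC and 3011, 2590 and 2568 in shUSP39, and 77.8 ± 2.6 against 89.2 ± 4.83 CPM (SD, n = 3). This small difference of 0.17 (SE 0.06, adjusted p = 0.0206, log2 scale) did not pass without pGIPZ-NC replicate 1 (adjusted p = 0.0648), without pGIPZ-NC replicate 3 (0.0948) or without shUSP39 replicate 1 (0.138). An annotated readthrough transcript joins EFNA4 to EFNA3, and how its reads were counted is not given in the sources used here.

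EFNA4, EFNA3 and EFNA1 lie side by side on chromosome 1 (155036213 to 155107375, GRCh37, plus strand). EFNA4, named for its position, had log2 fold change 0.23 (SE 0.12, adjusted p = 0.135), so the 3 neighbours had positive values of 0.17 to 1.29. Within 100 kb on either side 14 other genes had rows, of which 10 were tested. At the adjusted p 4 of these were higher and 3 lower, beside 16.1% higher and 17.5% lower of all genes. SLC50A1, which begins within 1 kb of the end of EFNA1, was higher by 0.59 (SE 0.17, adjusted p = 0.0097), and THBS3, the neighbour with the largest change, was -1.27 (SE 0.26, adjusted p = 0.0004). These neighbours were looked up after the ephrin values were seen.

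Of the class B ephrins, EFNB1 rose and EFNB3 had a log2 fold change of 0.03 that did not pass. EFNB1, a transmembrane ligand of EPHB receptors, had 1899, 2090 and 1742 counts in pGIPZ-NC and 2794, 2853 and 2691 in shUSP39. That was 61.3 ± 2.28 and 91.2 ± 3.23 CPM (SD, n = 3), a log2 change of 0.55 (SE 0.06, adjusted p = 1.85e-08), with no overlap. EFNB2 was not tested, and its counts of 1, 2 and 21 against 1, 24 and 2 were each carried by a single library of a group.

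Among the 8 class A Eph receptors 5 were tested, with 3 higher and 1 lower. EPHA7 rose most, from 14, 14 and 24 counts to 127, 93 and 60, or from 0.569 ± 0.242 to 3.04 ± 0.978 CPM (SD, n = 3). The log2 fold change was 2.40 (SE 0.35, adjusted p = 4.9e-06), 5.29-fold higher, and even the lowest shUSP39 library was above the highest pGIPZ-NC library. EPHA10, a receptor without kinase activity, had 148, 110 and 101 counts in pGIPZ-NC and 339, 317 and 319 in shUSP39, a log2 change of 1.45 (SE 0.16, adjusted p = 3.84e-08).

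EPHA2, the class A receptor with the highest level per kilobase and a kinase often raised in carcinomas, had 970, 1105 and 988 counts against 1569, 1361 and 1488. Its log2 fold change was 0.53 (SE 0.08, adjusted p = 3.15e-06). EPHA2 and its ligand EFNA1 were thus both higher in shUSP39, with no overlap in either gene.

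EPHA3, a kinase receptor that binds EFNA5, was lower, as was EFNA5. Of the class A genes tested, 3 receptors and 3 ephrins were higher at the adjusted p, and EPHA3 and EFNA5 alone were lower. The EPHA3 counts were 115, 118 and 102 in pGIPZ-NC and 17, 27 and 30 in shUSP39, and its level was 3.58 ± 0.0189 and 0.816 ± 0.252 CPM (SD, n = 3). The log2 fold change was -2.16 (SE 0.29, adjusted p = 1.24e-06), 4.47-fold lower. EPHA5, the remaining class A receptor tested, had a log2 change of -0.72 (SE 0.34) and did not pass.

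Both class B receptors tested were higher. EPHB4, the receptor of venous endothelium and the most abundant Eph receptor per kilobase here, had 6033, 6383 and 5438 counts in pGIPZ-NC and 7878, 7247 and 7557 in shUSP39. It was higher by 0.35 (log2, SE 0.04, adjusted p = 1.21e-07). EPHB3, known from the sorting of intestinal crypt cells, had 80, 92 and 58 counts against 153, 223 and 240, a log2 change of 1.44 (SE 0.21, adjusted p = 5.29e-06). Its rise was smallest in shUSP39 replicate 1, and with replicates 2 and 3 left out it was 0.95 with an adjusted p of 0.0247, just inside 2-fold.

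The class 3 semaphorins, secreted proteins, were lower where they passed. Of 7 genes 5 were tested, with 3 lower and 0 higher at the adjusted p. SEMA3D, a secreted repellent of axons and endothelial cells, had 298, 250 and 184 counts in pGIPZ-NC and 1, 31 and 18 in shUSP39, a level of 7.78 ± 1.38 against 0.556 ± 0.499 CPM (SD, n = 3). Its log2 fold change was -3.84 (SE 0.54, adjusted p = 0.0006), 14.3-fold lower. All shUSP39 libraries were low, and replicate 1 was near 0. The log2 value was -4.65 without shUSP39 replicate 2 and -4.69 with limma-voom.

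SEMA3A, the founding collapsin of the family and a ligand of NRP1 with class A plexins, had 123, 101 and 107 counts in pGIPZ-NC and 5, 16 and 18 in shUSP39. The log2 fold change was -3.06 (SE 0.36, adjusted p = 1.21e-07), 8.36-fold lower, and its groups did not overlap. In SEMA3D, SEMA3A, EFNA5 and EPHA3 alike, shUSP39 replicate 1 was the lowest of its group. With replicates 2 and 3 left out, the fitted log2 values were -7.80, -4.49, -4.51 and -2.76 in that order, and all 4 kept their calls.

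SEMA3C had the highest level per kilobase of all 58 genes, at 176 ± 6.81 CPM per kb in the controls and 123 ± 3.79 with the hairpin (SD, n = 3). It is a secreted semaphorin known from outflow tract development and raised in several cancers. Its counts were 28881, 28056 and 23511 against 19291, 18574 and 17035, a log2 change of -0.54 (SE 0.03, adjusted p = 1.55e-12). SEMA3C made up most of the summed level of its class, which was 854 to 920.0 CPM in pGIPZ-NC and 595 to 632 CPM in shUSP39.

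SEMA3C, SEMA3E, SEMA3A and SEMA3D share a stretch of chromosome 7 (80371854 to 84816372, GRCh37), all on the minus strand. SEMA3E was too low to test, with 16, 0 and 2 counts in pGIPZ-NC and 0 in each shUSP39 library. The only other genes with rows in these 4.45 Mb were HGF (log2 fold change -0.12, adjusted p = 0.646), CACNA2D1 (-0.14, adjusted p = 0.104) and PCLO (-0.23, adjusted p = 0.818), which lie between SEMA3C and SEMA3E. None of the 3 passed. The stretch was examined after the semaphorin values were seen. The class 3 genes elsewhere that were tested, SEMA3F and SEMA3G on chromosome 3, had log2 fold changes of -0.05 and 0.41 and did not pass.

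All 5 class 4 semaphorins, transmembrane ligands of plexins B and D, were tested, with 2 higher and 1 lower. SEMA4C, a ligand of PLXNB2, had 3792, 3845 and 3427 counts in pGIPZ-NC and 4605, 4661 and 4357 in shUSP39, a log2 change of 0.31 (SE 0.05, adjusted p = 6.47e-06). SEMA4D, the ligand of PLXNB1, had 352, 282 and 320 counts against 480, 439 and 389, a log2 change of 0.45 (SE 0.12, adjusted p = 0.0055), and did not pass without pGIPZ-NC replicate 2 (adjusted p = 0.056). SEMA4F had only 35, 24 and 19 counts in pGIPZ-NC and 8, 11 and 8 in shUSP39.

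The SEMA4F groups did not overlap, but its log2 fold change of -1.50 (SE 0.54, adjusted p = 0.0318) had the highest adjusted p of the 12. It lost its call without pGIPZ-NC replicate 1 or 2 (adjusted p = 0.173 and 0.0666) and without shUSP39 replicate 1, 2 or 3 (0.0892, 0.0511 and 0.0937). It was not called with replicates 2 and 3 left out together either (adjusted p = 0.162).

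Of class 6, SEMA6D and SEMA6B were lower. SEMA6D, a transmembrane ligand of PLXNA1, had 21, 21 and 10 counts in pGIPZ-NC and 0, 1 and 0 in shUSP39 (adjusted p = 0.0002). The ratio of the summed counts per total was 50.9-fold lower in shUSP39, with a 95% exact interval of 8.74 to 2047 that covers counting error only. SEMA6B, the second highest of all 58 genes per kilobase, had 10496, 11422 and 9328 counts against 9080, 8734 and 8898, a log2 change of -0.22 (SE 0.04, adjusted p = 6.45e-05). SEMA5A, SEMA6A and SEMA7A had at most 15 counts in any library.

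**Figure D3:**
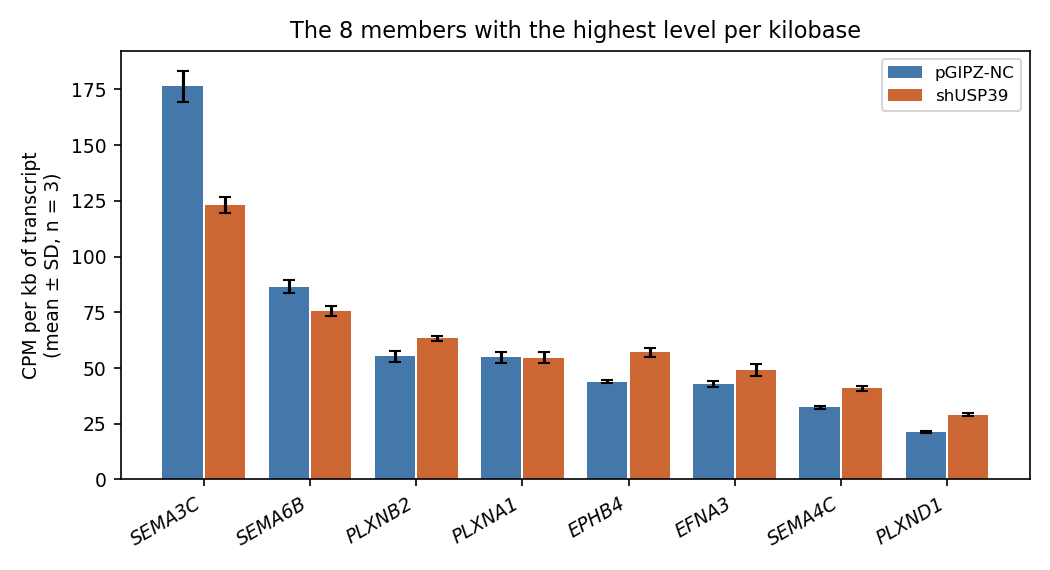
Mean level (CPM per kb of transcript, bars from 0, error bars SD, n = 3) of the 8 guidance genes with the highest level per kilobase in pGIPZ-NC and shUSP39. SEMA3C fell from 176 to 123 CPM per kb, and PLXNA1 stood at 54.9 and 54.6.

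The order of the 8 highest levels per kilobase, averaged over both groups, was SEMA3C, SEMA6B, PLXNB2, PLXNA1, EPHB4, EFNA3, SEMA4C and PLXND1. PLXNB2 and PLXNA1 were within their spread of each other in pGIPZ-NC, at 55.2 ± 2.64 and 54.9 ± 2.53 CPM per kb (SD, n = 3). EPHB4 and EFNA3 were also close there, at 43.9 ± 0.795 and 42.8 ± 1.43. In shUSP39 EPHB4 stood above PLXNA1, at 57.0 ± 1.99 and 54.6 ± 2.42 CPM per kb. Length was that of the MANE Select transcript, and a gene whose reads were split or dropped among transcripts would be placed too low.

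The plexins changed little. Of 9 genes 6 were tested, and none was beyond 2-fold, with log2 fold changes between -0.03 and 0.44. PLXNA1, a receptor of class 3 and class 6 semaphorins, had 15624, 17472 and 14628 counts in pGIPZ-NC and 15360, 15904 and 15203 in shUSP39. Its log2 fold change of -0.03 (SE 0.04, adjusted p = 0.592) was smaller than its error. The value was positive under upper-quartile scaling (0.0135) and without shUSP39 replicate 1 (0.00027). SEMA6D, a ligand of PLXNA1, and SEMA3A, a ligand of class A plexins, were lower, so not every ligand and receptor moved together.

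PLXNB2 and PLXND1 rose slightly. PLXND1, a receptor of SEMA3E and SEMA4 ligands in vessels, had 4619, 4779 and 4236 counts against 6395, 5964 and 6055, a log2 change of 0.44 (SE 0.04, adjusted p = 4.11e-09). PLXNB2, the receptor of SEMA4C, had 10818, 11735 and 10444 counts against 12660, 12469 and 11971, a log2 change of 0.17 (SE 0.04, adjusted p = 0.0006). SEMA4C and PLXNB2 were thus both higher, and neither gene's groups overlapped.

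NRP1, a co-receptor of the secreted semaphorins, was listed on 1 transcript row. It had 0 counts in every pGIPZ-NC library and 0, 1 and 1 in shUSP39. A count of 0 allows a level of up to 0.0911 to 0.106 CPM in the pGIPZ-NC libraries, for counting error only. Reads of NRP1 on other transcripts are not covered by this row, and NRP2, the other neuropilin, was not analysed here.

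The 2 SLIT ligands moved in opposite directions. SLIT1 had 1, 8 and 5 counts in pGIPZ-NC and 34, 43 and 35 in shUSP39, the largest rise of the 37 genes tested. Its level was 0.15 ± 0.108 and 1.23 ± 0.179 CPM (SD, n = 3), a log2 change of 2.97 (SE 0.58, adjusted p = 0.0002) or 7.86-fold higher. A readthrough from the neighbouring ARHGAP19 and an antisense RNA overlap SLIT1, and use of strand is not stated.

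SLIT2, often silenced in carcinomas, fell from 256, 313 and 271 counts to 159, 175 and 136. The log2 fold change was -0.83 (SE 0.15, adjusted p = 0.0001). The table lists SLIT2 under 2 transcripts, and the fall was -1.09 (SE 0.19, adjusted p = 8.48e-05) in NM_001289135.2 and -0.34 (SE 0.28, adjusted p = 0.409) in NM_004787.3. A test of whether their shares of SLIT2 differed did not pass (adjusted p = 0.284).

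The ROBO receptors tested were also split. ROBO1, the main receptor of both ligands, had 198, 211 and 172 counts in pGIPZ-NC and 142, 113 and 131 in shUSP39, a log2 change of -0.58 (SE 0.17, adjusted p = 0.0094). ROBO3, which does not bind SLIT well in mammals and instead takes NELL2 as a ligand, had 296, 380 and 342 counts against 447, 441 and 435, a log2 change of 0.38 (SE 0.12, adjusted p = 0.0156). The groups of both genes were apart, but ROBO1 did not pass without shUSP39 replicate 2 (adjusted p = 0.0504), nor ROBO3 without pGIPZ-NC replicate 1 (0.107), nor either without shUSP39 replicates 2 and 3 (0.165 and 0.19).

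UNC5B was the only netrin receptor of its family high enough to test, at 17, 17 and 7 counts in pGIPZ-NC and 16, 31 and 33 in shUSP39. Its log2 fold change of 0.99 (SE 0.52, adjusted p = 0.15) did not pass, and its groups overlapped. UNC5A had 4, 1 and 0 counts against 7, 30 and 6, and was not tested.

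To ask whether the make-up of transcripts changed, the 4 guidance genes with at least 2 transcripts above the filter were tested for usage, that is, whether a transcript's share of its gene differed between groups. SEMA4D passed (adjusted p = 0.0003), while SEMA3F (0.285), SLIT2 (0.284) and SEMA4B (0.779) did not, and 3.69% of all 1628 genes tested passed. The share of NM_006378.3 in SEMA4D counts was 31.8%, 35.5% and 33.1% in pGIPZ-NC and 51.7%, 56.0% and 71.5% in shUSP39. The shares did not overlap, and the highest belonged to shUSP39 replicate 3.

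The change lay in the rise of NM_006378.3, from 112, 100 and 106 counts to 248, 246 and 278 (log2 fold change 1.29, SE 0.17, adjusted p = 1.29e-06). NM_001142287.1 had 240, 182 and 214 counts in pGIPZ-NC and 232, 193 and 111 in shUSP39 (-0.25, SE 0.20, adjusted p = 0.382). The gene's rise of 0.45 was thus the sum of a transcript that more than doubled and one whose value was negative and did not pass. With shUSP39 replicates 2 and 3 left out together, the usage test gave an adjusted p of 0.152. What parts of the gene tell the transcripts apart, and how reads common to both were counted, is not given in the sources used here.

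**Figure D4:**
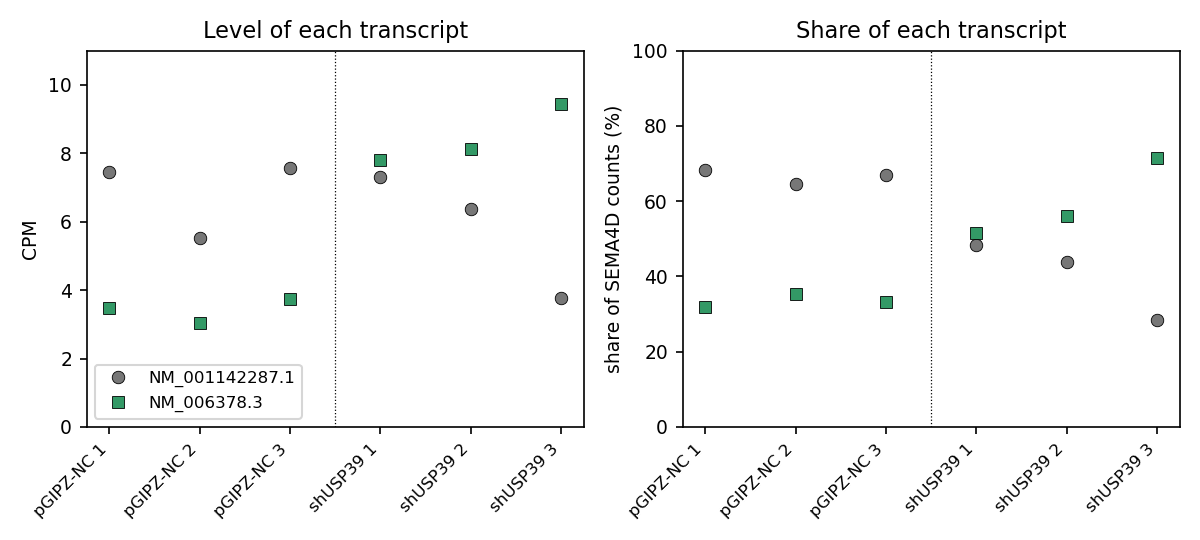
CPM (left) and share of SEMA4D counts in percent (right) of its 2 transcripts in each library. Squares (NM_006378.3) rise from between 31.8% and 35.5% in the pGIPZ-NC libraries to between 51.7% and 71.5% in the shUSP39 libraries, above the circles (NM_001142287.1).

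The 21 guidance genes that were not tested had at most 32 counts in any library. Their number with a count was 11 to 13 in the pGIPZ-NC libraries and 7, 18 and 16 in shUSP39 replicates 1, 2 and 3, and 12 of them had their highest CPM in replicate 2 or 3. EPHB1 had 16 and 18 counts in these 2 libraries and 0 in shUSP39 replicate 1, against 0, 1 and 0 in pGIPZ-NC, and PLXNA4 had 22 and 28 and again 0, against 1, 0 and 0. Both were thus seen in the libraries with more genes detected and not in shUSP39 replicate 1. EPHB6 went the other way, with 3, 9 and 7 counts in pGIPZ-NC and 0 in each shUSP39 library. These genes were named after their values were seen. None passed the filter on low counts with all libraries. Without any filter PLXNA4, EPHB1 and EPHB6 were called beyond 2-fold. With the filter, PLXNA4 was called higher in fits without pGIPZ-NC replicate 1, 2 or 3 or without shUSP39 replicate 1, and EPHB1 without pGIPZ-NC replicate 2 or without shUSP39 replicate 1.

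The genes that fell covered more of the genome than those that rose. The 6 lower beyond 2-fold had a median span of 334 kb in GENCODE (range 29.6 to 590.1 kb) and the 6 higher 35.9 kb (7.02 to 188 kb), and the 4 that were lower within 2-fold had a median of 274 kb. Across the 37 genes tested, Spearman's correlation of log2 fold change with span was -0.446, while across 10231 of all genes tested it was -0.097. With exon number it was -0.171 and -0.123. Over all genes the medians were 40.3 kb for the 240 lower beyond 2-fold and 27.1 kb for the 465 higher, so the difference there was smaller. These are descriptions across genes, which are not independent replicates and share the same 6 libraries. SLIT1 and EPHA7 rose although each spans over 179 kb, and the short gene SEMA4F fell.

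**Figure D5:**
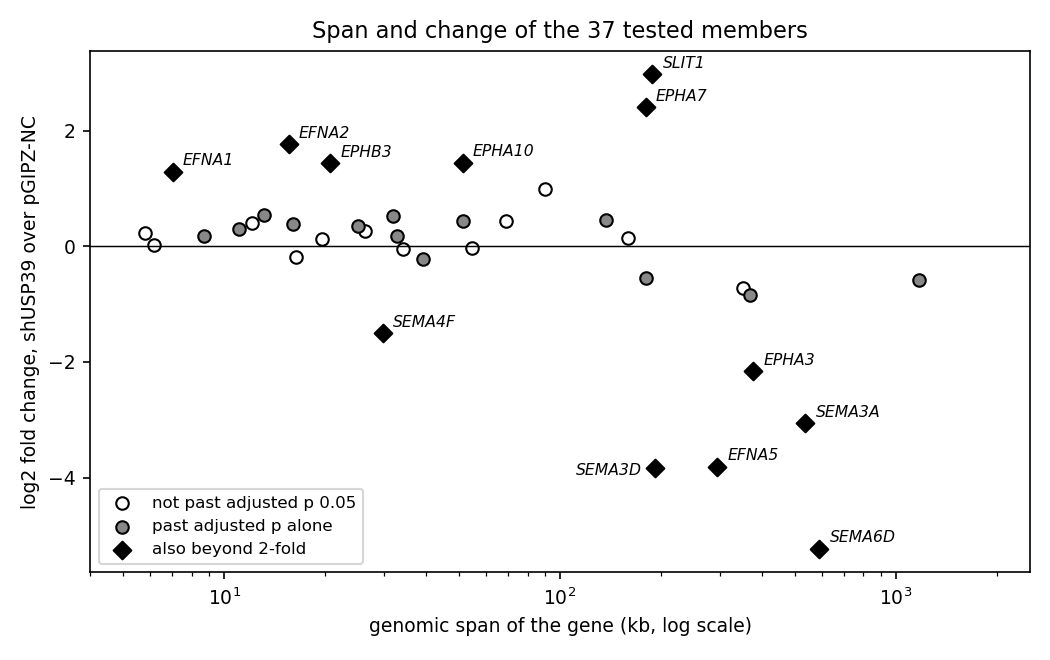
Genomic span (kb, log scale) against log2 fold change of shUSP39 over pGIPZ-NC for the 37 tested guidance genes. Of the 6 genes lower beyond 2-fold, 5 span over 190 kb and SEMA4F spans 29.6 kb, while the rising genes run from 7.02 kb in EFNA1 to 188 kb in SLIT1.

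Other cues and co-receptors of the pathway were counted from a list of 50 genes (netrins, RGM and FLRT proteins, Hedgehog and Nogo co-receptors, growth factors with a guidance role). Of 22 tested, 10 were higher and 5 lower at the adjusted p. The 68.2% that passed counts both directions, so it compares with the sum of the 16.1% higher and 17.5% lower of all genes. The median log2 value of these cues was 0.40 beside 0.01 over all genes. NELL2, the ligand of ROBO3, rose with its receptor, from 21, 22 and 27 counts to 103, 103 and 120 (2.22, SE 0.29, adjusted p = 7.9e-07). The Nogo receptor relative RTN4RL1 (1.39), the BMP co-receptor RGMB (1.20) and the Hedgehog co-receptor BOC (1.08) were higher beyond 2-fold as well. NTNG2 (1.04) was also just beyond the limit. Of the 22 tested, 5 were higher and 2 lower beyond 2-fold, beside 4.53% higher and 2.28% lower of all genes. BOC was inside 2-fold without pGIPZ-NC replicate 2 (0.93), without shUSP39 replicate 1 (0.89) or 3 (0.99) and with its highest transcript alone (0.83). VEGFC, a growth factor of lymphatic vessels, fell from 172, 91 and 132 counts to 12, 1 and 2 (-4.69, SE 0.46), and the neurotrophin BDNF from 58, 44 and 62 to 2, 8 and 7 (-3.24, SE 0.50). The VEGFC value was -6.32 without shUSP39 replicate 1 and -3.50 without replicates 2 and 3. That of BDNF was -4.75 without replicates 2 and 3 and -6.20 with its highest transcript alone. Both kept their calls in these fits.

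Inside the cell, guidance signals act through regulators of the cytoskeleton. Of 92 effectors listed, such as exchange factors, kinases and actin regulators, 65 were tested, with 7 higher and 15 lower at the adjusted p. The 33.8% that passed counts both directions, so it compares with the sum of the 16.1% higher and 17.5% lower of all genes. The median log2 value of the effectors was -0.04. Of the 65 tested, 2 were higher and 1 lower beyond 2-fold, beside 4.53% higher and 2.28% lower of all genes. They were the cofilin phosphatase SSH3 (1.07), the Src family kinase FYN (1.04) and the Rac and Cdc42 effector kinase PAK1 (-1.29). SSH3 was inside 2-fold without pGIPZ-NC replicate 1 (0.86), and FYN without pGIPZ-NC replicate 3 (0.80) or shUSP39 replicate 2 (0.87). FYN and PAK1 did not pass without shUSP39 replicates 2 and 3 (adjusted p = 0.226 and 0.224), and PAK1 passed in only 1 of 6 fits that left out a library, with an adjusted p of up to 0.131. RAC1 and CDC42, which all cells use, had 26 to 117 counts in these libraries, so the levels of some genes in this table may be too low.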

How the data were processed

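The authors deposited 1 table of raw read counts per RefSeq transcript, with 1 column for each of the 6 libraries. HISAT2, Cufflinks and the genome build hg19 are named in the submitters' processing notes, with no role. The counter, its annotation and its use of strand are not given in the sources used here. The table's 6 columns of the authors' own means, folds and tests were not used.

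Groups and replicate numbers were read from the labels. Counts were summed per gene symbol, after 46 of 47 symbols in the form of a date were replaced through the transcript accession. The gene-level fit used edgeR 4.0.16 under R 4.3.3 (filterByExpr, TMM, robust quasi-likelihood, group as the only term), and p was adjusted by Benjamini-Hochberg over 10695 genes. Transcript usage was tested with diffSpliceDGE over 1628 genes. The threshold was an adjusted p of 0.05, with the study's 2-fold limit added where stated. A CPM ± SD uses the totals without TMM factors. Coordinates and lengths came from GENCODE release 44 mapped to GRCh37.

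The guidance genes, the lists of cues and effectors and the markers were chosen with earlier results of these data known. Values per library were given for genes called beyond 2-fold, the 8 highest per kilobase, up to 8 others past the adjusted p and those past the usage test, and other genes named were chosen after their values were seen. On simulated counts for 10713 genes, 97% of 200 genes changed 3-fold were recovered with 1 false call, and for usage in 1630 genes 100% of 100 with 6 false calls. Every simulated gene had the same spread beyond counting error. Changes were put only into genes that passed the filter and, for usage, into transcripts with higher mean counts. These rates therefore do not cover genes whose libraries vary more, such as SEMA3D. With 28294819 to 32939264 counts per library, intervals cover counting error only.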

Additional observations from a re-analysis of the deposited data

How the results depend on the processing

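The same 12 guidance genes (6 higher, 6 lower) were called beyond 2-fold with limma-voom, the DESeq2 Wald test and 3 other scalings (library size only, upper quartile, DESeq2 size factors). At the adjusted p alone these gave 15 higher and 10 lower, but 17 higher with library size only and with the upper quartile. With at least 10 counts in every library, 31 guidance genes were tested. Of these, 2 were lower beyond 2-fold and 6 lower at the adjusted p, since SEMA3A, SEMA3D, SEMA4F and SEMA6D could not pass this filter. Beyond 2-fold 5 were higher, and at the adjusted p 14, since SLIT1 could not pass it either. Without any filter, EPHB1, EPHB6, PLXNA4, SEMA3E and UNC5A were added and SEMA4F was lost, and all genes together had a median log2 value of 0.12. With only the transcript of each gene with the most counts, SLIT2 was added and SEMA6D lost. Tested against the 2-fold limit itself, 3 were higher and 5 lower. Leaving out each library in turn gave 6 to 8 higher and 5 to 6 lower beyond 2-fold, of 38 to 44 guidance genes tested. At the adjusted p it gave 14 to 17 higher and 8 to 11 lower. It also gave 13 to 17 of the other cues, 17 to 22 effectors and 1 gene with changed usage. Shares over all genes are not given for these fits. With shUSP39 replicates 2 and 3 left out together, 12 effectors and 0 genes with changed usage passed, in a fit that assumes shUSP39 replicate 1 to vary like the pGIPZ-NC group. PLXNA1 turned positive under upper-quartile scaling (0.0135), and its range with 1 library left out was -0.0677 to 0.00027. For the transcript of SEMA4D with the most counts alone, the value was -0.25. The cause of these changes was not tested. Pseudocounts planned for normalized values were not run, since the table holds counts. Over 35 named genes, 527 refitted values kept direction and their result at the adjusted p, 22 no longer passed it and 3 changed sign. The 2-fold limit was not part of this count. The 527 include EPHB3 without shUSP39 replicates 2 and 3, although its log2 value of 0.95 was inside 2-fold.

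Whether the replicate numbers pair the libraries could not be decided with 3 libraries per group. Deviations from the group means correlated at 0.0688, 0.0048 and 0.0216 between libraries of the same number. The 0.0688 for number 1 was the highest of all pairs, while pGIPZ-NC replicate 2 correlated better with shUSP39 replicate 3 (0.0302). With the replicate number as a block, 6 were higher and 6 lower beyond 2-fold and 16 higher and 10 lower at the adjusted p, 16 other cues, 24 effectors and 1 gene with changed usage passed.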
